A study of Mus musculus with 6 samples.

Results

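The regions described here are stacked sites of PTBP2 in wild-type mouse cortex at which no FLAG interval was listed. A site is a run of overlapping or touching read intervals on 1 strand, and a site is stacked when it is built from 5 or more distinct intervals. The members were chosen on the measured values: of 8866 stacked PTBP2 sites on chromosomes 1 to 9 and 11 to 19, the 1751 that overlapped no interval of any of the 4 FLAG lists were taken (19.7%). Over all chromosomes the PTBP2 wild-type list held 9652 stacked sites. Chromosome 10 was left out because the FLAG list of Rosa-PTBP1 cortex was nearly empty there, and the sex chromosomes are outside the rule. The absence of FLAG is thus what selected these sites and is not a finding.

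Polypyrimidine tract binding proteins carry RNA recognition motifs that bind stretches of RNA rich in C and U, often within introns beside alternative exons, where they mostly repress splicing. PTBP1 is the form of most non-neural cells and of neural progenitors. PTBP2, its close relative, takes its place as neurons differentiate, partly because PTBP1 represses the splicing of an exon that PTBP2 needs. Since both bind similar sequences, a crosslinking map asks where their sites coincide and where they do not.

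CLIP-seq, in which proteins are crosslinked to RNA by ultraviolet light (here 400 mJ/cm2) and the bound RNA is sequenced after immunoprecipitation, was performed on nuclear fractions of neocortex on postnatal day 1, all of strain background BL6/129Sv. A polyclonal PTBP2 antibody was applied to cortex of wild-type and of Rosa-PTBP1; Emx1-cre mice (1 library each). FLAG antibody was applied to Rosa-PTBP1; Emx1-cre cortex (1 library), to Rosa-PTBP1 cortex with Emx1-Cre and homozygous PTBP2 loxp alleles (1 library), and to wild-type cortex (replicates 1 and 2), which carries no FLAG-PTBP1 by its label and measures background. Emx1-cre drives recombination in the dorsal forebrain progenitors that give rise to cortical excitatory neurons, so other cells of the cortex keep the unrecombined alleles. The labels do not say how many animals were pooled. Every comparison between PTBP2 libraries therefore rests on 1 library a genotype, and the 95% intervals below cover counting error only. Sites of 1 transcript are not independent, which makes those intervals too narrow.

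The lists held 155447 distinct intervals for PTBP2 in wild type and 74416 for PTBP2 in Rosa-PTBP1, against 351602 and 265953 for FLAG-PTBP1 without and with the loxp alleles and 88327 and 26665 for the wild-type FLAG replicates 1 and 2. The sequencing run was inferred from a field of the read names. By that field, both FLAG-PTBP1 lists and FLAG wild-type replicate 2 came from run WA047. Both PTBP2 lists and FLAG wild-type replicate 1 came from runs XA041 and XB028. Each distinct interval was counted under the run of its first line only, so any interval listed in both runs counts for 1 of them. Between the PTBP2 wild-type list and the FLAG-PTBP1 lists, antibody, genotype and run all differ and cannot be told apart. The PTBP2 lists share antibody and runs, though in unequal parts, with 30.3% of intervals from XA041 in wild type and 61% in Rosa-PTBP1. The lists hold clusters that passed a false discovery rate, so a site with no listed FLAG interval may still have held FLAG reads. Positions are in mouse build mm9. Gene names, exons, introns and sequences of the sites were not analysed here, because no annotation or genome of that build was used.

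The PTBP2 sites without FLAG were shallow and short. They held a median of 6 distinct intervals (quartiles 5 and 7, highest 31) over a median of 64 bases (33 to 178). The comparison group was the 5002 stacked PTBP2 sites that overlapped intervals of both FLAG-PTBP1 lists, called shared sites. Shared sites held a median of 9 intervals (quartiles 6 and 16, highest 801) over a median of 80 bases. Sites of exactly 5 intervals made up 842 of the 1751, or 48.1%. The members made up 19.7% of the stacked sites but 10.4% of the intervals in them, whereas the shared sites held 74.6%. The other stacked sites overlapped FLAG in Rosa-PTBP1 alone (1259), FLAG with loxp alleles alone (686), or wild-type FLAG alone (168).

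**Figure D1:**
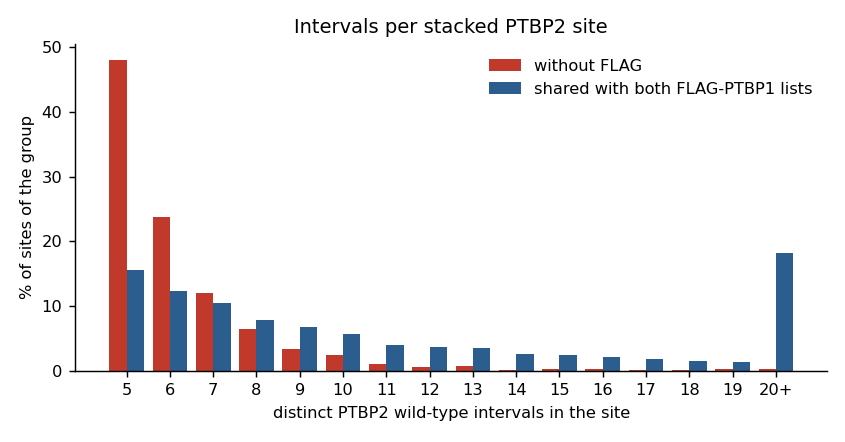
Share of sites (y axis, % of the group) by the number of distinct PTBP2 wild-type intervals in the site (x axis), for the 1751 sites without FLAG and the 5002 shared sites. Nearly all sites without FLAG hold 5 to 9 intervals, while the shared sites reach far past 20.

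The share of stacked sites that lacked FLAG was lower among deeper sites. It was 27.1% among sites of 5 to 9 intervals (1639 of 6057), 5.8% among sites of 10 to 19 (108 of 1861) and 0.422% among sites of 20 or more (4 of 948). The rule itself asks for no overlap, so this gradient describes the selected set and is given without a test. Its cause was not tested. At the edges of the rule, 1425 of 2794 sites of 4 intervals also had no FLAG interval, and 312 stacked sites were kept out by a single FLAG interval over the 4 lists.

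Members lay on every chromosome examined, from 13.9% of the stacked sites of chromosome 9 to 26.7% on chromosome 12. There were 807 on the plus strand and 944 on the minus strand. No member, and none of the 8866 stacked sites, overlapped an interval of any list on the opposite strand. Whether the lists were filtered by strand before deposit is not stated in the sources used here, so these counts of 0 are not read as a property of the sites.

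Most members lay near listed FLAG-PTBP1 RNA without touching it. The nearest FLAG-PTBP1 interval of either list on the same strand was a median of 429 bases away. It lay up to 50 bases away at 313 members (17.9%), over 50 and up to 500 bases at 605 (34.6%), over 500 and up to 5000 bases at 520 (29.7%), and farther at 313 (17.9%). By list the median was 720 bases to FLAG in Rosa-PTBP1, 1202 bases to FLAG with loxp alleles, 1056 bases to wild-type FLAG replicate 1 and 30302 bases to replicate 2. Replicate 1, a background library made up largely of scattered single intervals, was thus about as near as the FLAG-PTBP1 lists at the median. It was rarer at close range: an interval lay within 50 bases at 3.71% of members, against 12.3% and 10.4% for the FLAG-PTBP1 lists.

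**Figure D2:**
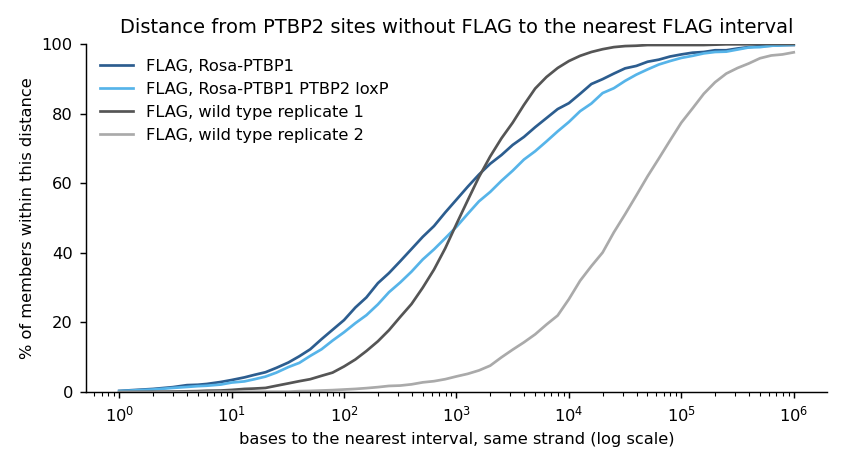
Cumulative share of the 1751 sites without FLAG (y axis, %) whose nearest FLAG interval on the same strand lies within a given distance (x axis, bases, log scale), for each of the 4 FLAG lists. The lines of both FLAG-PTBP1 lists lie above wild-type replicate 1 at distances up to 794 bases. At 1000 bases the line with loxp alleles lies just below replicate 1 (47.5% against 48.3%). Replicate 2 lies far to the right.

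The surroundings of these sites were also less occupied by PTBP2 itself. Both groups were chosen on the PTBP2 wild-type and FLAG lists and differ in depth. The spacing therefore describes the selected sets, without a test and without matching for depth. Another stacked PTBP2 site lay within 500 bases of 29.2% of members and of 68% of shared sites. The median distance to the nearest other stacked PTBP2 site was 2816 bases for members and 149 bases for shared sites. Another member lay within 500 bases of 177 of 1751 members (10.1%), and a member lay that near to 8.08% of shared sites. A total of 269 members (15.4%) and 245 shared sites (4.9%) had no other stacked PTBP2 site within 100000 bases.

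The windows of 100 kb with most members, taken on a single strand each, show how members were spread in PTBP2-rich regions. The minus-strand window of chromosome 16 from 67.5 to 67.6 Mb held 38 stacked sites, of which 11 were members and 16 shared. The plus-strand window of chromosome 13 from 9.3 to 9.4 Mb held 44, of which 11 were members and 28 shared. The minus-strand window of chromosome 2 from 6.7 to 6.8 Mb held 141, of which 10 were members and 100 shared. The same windows held 1304, 784 and 8076 FLAG-PTBP1 intervals of Rosa-PTBP1 cortex in the same order. A ranking by number of members favours windows with many stacked sites, so this is not read as a trait of the members. Members made up 28.9%, 25% and 7.09% of the stacked sites in these windows, against 19.7% of all stacked sites. Windows tied at 10 members were, all on the minus strand, 40.0 to 40.1 Mb (38 stacked sites) and 40.1 to 40.2 Mb (81) of chromosome 14, and 3.5 to 3.6 Mb (59) of chromosome 1. In all, members lay in 1070 windows, 725 of which held 1 member. Of 469 windows with 5 or more stacked sites, members outnumbered the other sites in 22, and in no window was every stacked site a member. The highest shares, chosen after their values were seen, were 4 of 5 stacked sites at 93.7 to 93.8 Mb of chromosome 14 (minus strand) and at 39.1 to 39.2 Mb of chromosome 15 (plus strand), and 8 of 11 at 67.0 to 67.1 Mb of chromosome 16 (minus strand).

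The PTBP2 library of Rosa-PTBP1 cortex is the only list that the rule did not use, and it shows how often the same sites were listed a second time with the same antibody. It was compared on the 12 chromosomes (1 to 3 and 11 to 19) on which that list is not sparse, with 1153 members. A PTBP2 interval of Rosa-PTBP1 cortex overlapped 195 of the 1153 members, or 16.9% (exact Clopper-Pearson 95% interval 14.8 to 19.2). Over all 5785 stacked sites there the share was 42.1%, and among the 3240 shared sites it was 55.8% (54.0 to 57.5). The difference, members minus shared sites, was -38.9 percentage points (Newcombe 95% interval -41.5 to -36.0). Sites listed for FLAG in 1 genotype lay between: 33.2% (30.1 to 36.5) for those with FLAG in Rosa-PTBP1 only and 30.3% (26.1 to 34.9) for those with FLAG in the loxp genotype only. The 108 sites that overlapped wild-type FLAG alone were at 19.4% (12.5 to 28.2), an interval that holds the members' value.

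The difference was smaller among sites of 5 to 9 and of 10 to 19 intervals than over all sites. Among sites of 5 to 9 intervals, the Rosa-PTBP1 list overlapped 14.1% of 1080 members (12.1 to 16.3) and 38.8% of 1690 shared sites (36.4 to 41.1), where all stacked sites of that depth gave 28.3%. At exactly 5 intervals the shares were 11.3% (8.77 to 14.2) and 31.3% (27.3 to 35.6). Among sites of 10 to 19 intervals, the difference was not detectable: 60% of 70 members (47.6 to 71.5) against 62.9% of 935 shared sites (59.7 to 66.0), a difference of -2.89 points (-15.0 to 8.23), where all such sites gave 61.2%. Only 3 members on these chromosomes held 20 or more intervals, and 1 of them was overlapped, against 91.7% of 615 shared sites, a difference of -58.4 points (-85.6 to -12.4) that rests on those 3. With the shared sites weighted to the members' numbers of intervals, their share was 36.9%, and the difference was -19.9 points.

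**Figure D3:**
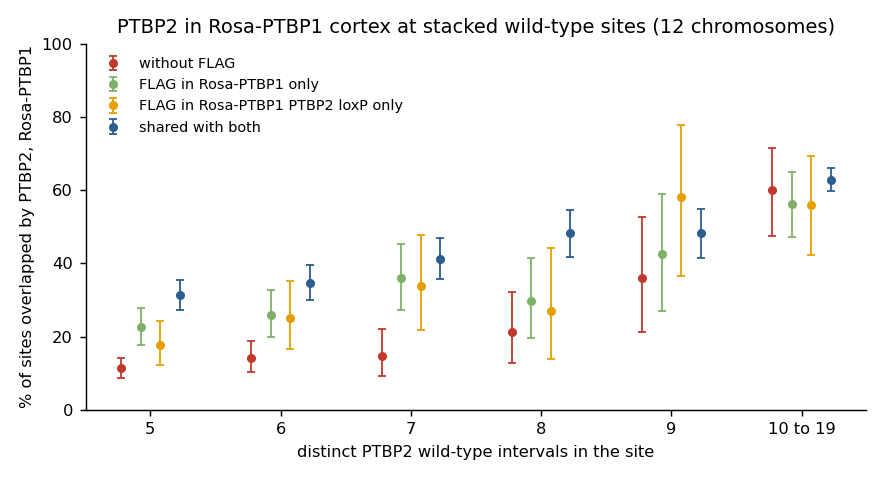
Share of stacked PTBP2 wild-type sites overlapped by a PTBP2 interval of Rosa-PTBP1 cortex (y axis, %), by number of wild-type intervals in the site (x axis), for sites without FLAG, with FLAG in 1 FLAG-PTBP1 list, and shared; points are shares and bars exact 95% intervals. The points of sites without FLAG lie lowest from 5 to 9 intervals, though some bars overlap, and the groups overlap from 10 to 19.

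The same order was seen on each chromosome taken alone. Members were overlapped less often than shared sites on 12 of 12 chromosomes, with 7.46% against 48.1% on chromosome 17 and 20.5% against 59.8% on chromosome 16, the lowest and highest values for members.

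**Figure D4:**
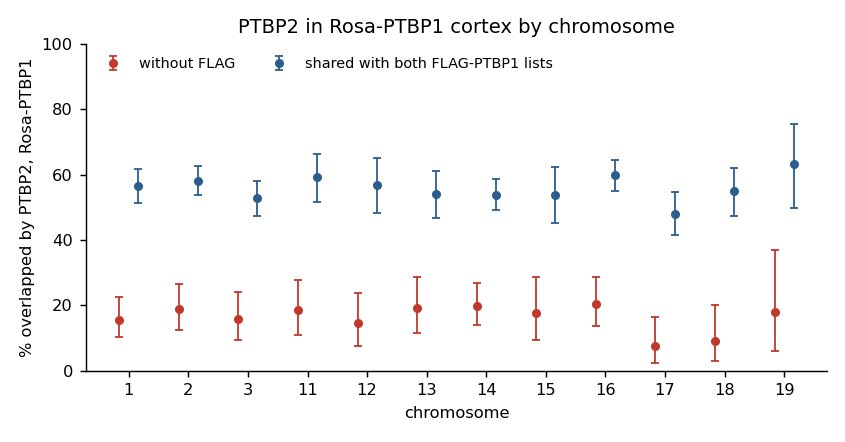
Share of sites overlapped by a PTBP2 interval of Rosa-PTBP1 cortex (y axis, %) on each of the 12 chromosomes (x axis), for sites without FLAG and shared sites, with exact 95% intervals. Sites without FLAG lie below the shared sites on every chromosome shown, from 7.46% to 20.5%.

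At the members that were overlapped, the Rosa-PTBP1 list mostly held several intervals. Of the 1153 members 958 held none, 34 held 1, 94 held 2 to 4, 53 held 5 to 9 and 14 held 10 or more. A stacked Rosa-PTBP1 site overlapped 71 members (6.16%, 4.84 to 7.70) and 39.5% of shared sites, where all stacked sites gave 27%. In total the members held 7.75% of the PTBP2 wild-type intervals on these chromosomes and 1.42% of the PTBP2 Rosa-PTBP1 intervals, while the shared sites held 57.7% and 41.2%. The wild-type values were raised by the selection of stacked sites in that list, so the lower Rosa-PTBP1 share in either group is not read as an effect of the transgene.

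The surroundings give the level of PTBP2 Rosa-PTBP1 intervals beside the sites. In stretches of the same length, 500 bases upstream and downstream, the Rosa-PTBP1 list overlapped 6.76% (5.38 to 8.37) and 5.20% (3.99 to 6.65) of the members' flanks, both below the 16.9% at the members. For shared sites the flanks gave 18.8% and 18.5%.

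The distance to FLAG did not order the members in 1 direction. Members with a FLAG-PTBP1 interval up to 50 bases away were overlapped by PTBP2 of Rosa-PTBP1 cortex at 23.6% (17.9 to 30.1), those over 50 and up to 500 bases away at 16.7% (13.2 to 20.7), those over 500 and up to 5000 bases away at 11.8% (8.64 to 15.7) and those farther away at 19.3% (14.2 to 25.4). The neighbourhood of PTBP2 sites gave a like pattern. Members with another stacked PTBP2 site within 500 bases were overlapped at 25.5% (21 to 30.4), those with the nearest over 500 and up to 100000 bases away at 11.9% (9.53 to 14.7), and lone members, with none within 100000 bases, at 17.9% (12.4 to 24.5). Shared sites were also lowest in the middle class, so that dip is not particular to the members. In the same order they were overlapped at 58.4% (56.3 to 60.4), 47.6% (44.2 to 51) and 63.9% (55.6 to 71.7). Their highest share was thus at lone sites, while that of the members was at sites with a neighbour within 500 bases. Among sites of 5 to 9 intervals, the members' shares were 21.7%, 9.6% and 16%. Those of the shared sites were 39.6%, 33.6% and 58.2%. The cause of this contrast was not tested.

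The members with most wild-type intervals numbered 11, with ties at the last place kept, and all 11 held 0 intervals in each of the 4 FLAG lists. Of these, 3 lay on the plus strand of chromosome 12 within the window from 110.7 to 110.8 Mb. The deepest, chr12:110799030-110799148, held 31 PTBP2 intervals in wild type and 0 in Rosa-PTBP1 cortex, with the nearest FLAG-PTBP1 interval 1630 bases away. Within 500 bases of it lay 6 PTBP2 Rosa-PTBP1 intervals and 5 of wild-type FLAG replicate 1, the nearest of the latter 196 bases away. Its neighbour chr12:110797506-110797609 held 19 and 3, with FLAG-PTBP1 at 106 bases, and chr12:110781515-110781587 held 19 and 12, with FLAG-PTBP1 at 1248 bases. These sites lay among 3 shared sites and 3 others with FLAG intervals in the same window. That window held 225 PTBP2 wild-type intervals, 60 PTBP2 Rosa-PTBP1, 190 FLAG Rosa-PTBP1 and 80 FLAG intervals with loxp alleles, and wild-type FLAG replicate 2, a background library, held 224, or as many as PTBP2. At chr12:110797506-110797609 replicate 2 came within 36 bases and listed 21 intervals within 500 bases, so background FLAG intervals lay near this member as near the deepest; the part of background in their PTBP2 signal was not tested.

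The second deepest member, chr2:7296180-7296357 on the minus strand, held 26 PTBP2 intervals in wild type and 7 in Rosa-PTBP1. No interval of any FLAG list lay within 500 bases of it, and the nearest FLAG-PTBP1 interval was 3579 bases away. Also on the minus strand, chr2:37485799-37485947 held 19 and 15 with FLAG-PTBP1 at 8805 bases, and it too had no FLAG interval of any list within 500 bases. These sites were therefore listed with PTBP2 antibody in both genotypes, with no listed FLAG interval within 500 bases. Wild-type FLAG replicate 1 had its nearest interval 2707 bases from the first site and 1051 bases from the second. The median of all members to that list was 1056 bases. Not every deep member was listed in both: chr16:67098806-67098931 held 20 intervals in wild type and 0 in Rosa-PTBP1, and chr11:118657396-118657568 held 19 and 0. The former lies in the chromosome 16 window where 8 of 11 stacked sites were members. The member chr9:28269790-28269951 held 20 and 0, but chromosome 9 is sparse in the Rosa-PTBP1 list and its 0 is not read. Its nearest FLAG-PTBP1 interval was 191 bases away. The remaining 3 of the 11, on chromosomes 1, 14 and 15, held 18 intervals each in wild type and 4, 3 and 6 in Rosa-PTBP1. In the same order, FLAG-PTBP1 lay 92, 37 and 1246 bases away. Within 500 bases, the first 2 of these had 30 and 17 FLAG intervals of Rosa-PTBP1 cortex. Of the 10 on the 12 chromosomes, 7 were overlapped by PTBP2 of Rosa-PTBP1 cortex. Over all stacked sites there, the share was 61.2% at 10 to 19 intervals and 90.9% at 20 or more, so this count is not read as particular to these members.

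The members with most intervals in Rosa-PTBP1 cortex were likewise 11, of which 2 were already named. The highest, chr1:170333899-170334034 on the minus strand, held 20 PTBP2 intervals in Rosa-PTBP1 and 17 in wild type, and chr14:100665665-100665768, also on the minus strand, held 19 and 16. Both sat at the edge of FLAG-PTBP1 sites, 12 bases from the nearest FLAG Rosa-PTBP1 interval, and within 500 bases they had 15 and 54 such intervals. Their lack of FLAG rests on a narrow gap. By contrast, chr13:42892077-42892164 on the plus strand held 19 and 15 intervals, and chr15:77890617-77890725 on the minus strand held 14 and 9, with the nearest FLAG-PTBP1 interval 804 and 98691 bases away. On the plus strand, chr13:8435446-8435543 held 12 in Rosa-PTBP1 and 9 in wild type with FLAG-PTBP1 6033 bases away, and chr11:84010930-84011045 held 11 and 17 with FLAG-PTBP1 4629 bases away. In these 4 the PTBP2 signal of both genotypes had no listed FLAG-PTBP1 interval within 500 bases. Near chr13:42892077-42892164, wild-type FLAG replicate 1 listed 1 interval within that range, 366 bases away. The other 3, chr3:55758469-55758550, chr12:75141741-75141834 and chr14:60660458-60660524, held 17, 14 and 11 intervals in Rosa-PTBP1 and had FLAG-PTBP1 intervals 2, 32 and 38 bases away.

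**Figure D5:**
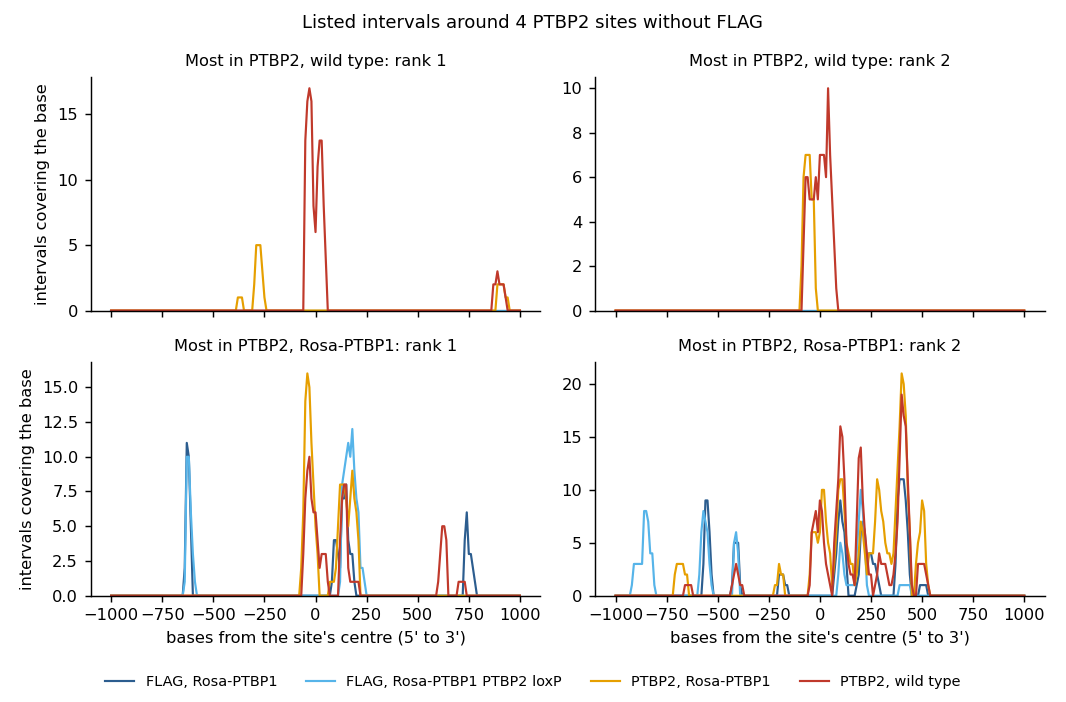
Number of distinct intervals covering each base (y axis) against distance from the site's centre in the direction of transcription (x axis, bases), for PTBP2 and FLAG-PTBP1 lists. The upper panels show the members with 31 and 26 wild-type intervals, where no FLAG-PTBP1 is listed within 1000 bases, and the lower panels those with 20 and 19 Rosa-PTBP1 intervals, where FLAG-PTBP1 intervals begin 12 bases from the site.

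With each interval counted under the run of its first line, XA041 gave 28.7% of the wild-type PTBP2 intervals in members. In shared sites it gave 28.4%. Intervals of both runs were held by 1508 of the 1751 members (86.1%) and by 4671 of the 5002 shared sites (93.4%), which are deeper, and intervals of XB028 alone by 242 members and 328 shared sites. With only Rosa-PTBP1 intervals of run XA041 the members were overlapped at 15.3%, and with only those of XB028 at 13.1%, and the differences from shared sites were -37.5 and -37.3 points.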

How the data were processed

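Per the submitters' processing notes, reads were aligned with Bowtie to mm9; its version is not stated there. Per the file headers, the authors deposited the reads of clusters significant at a false discovery rate. The deposited lists give positions with no score or count per interval; neither caller nor level is given in the sources used here. Repeated lines were collapsed to distinct intervals (chromosome, strand, start, end), and overlapping or touching intervals of 1 strand were merged. Overlap needs 1 base on the same strand, and distances run from edge to edge. A chromosome was sparse in a list when its share of sites was under 0.5 times the median of the other lists; PTBP2 in Rosa-PTBP1 was sparse on chromosomes 4 to 9 and X, and FLAG in Rosa-PTBP1 on 10.

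The named sites are the 10 members with most PTBP2 intervals in each genotype and the 5 windows of 100 kb with most members, ties kept. Members, groups and alternatives were chosen with earlier results of these data known. No significance test between groups was possible with 1 library each; shares carry 95% intervals from scipy 1.17.1 (Clopper-Pearson, Newcombe for differences). Merging and overlap were checked on simulated data. Gene lists and sequence motifs were not analysed here, because the reference at hand was of build GRCm38.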

Additional observations from a re-analysis of the deposited data

How the results depend on the processing

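The number of members, 1751, was 5277 with a stack of 3 or more intervals, 112 with 10 or more and 632 with no FLAG interval within 500 bases. It was 50 and 733 with both PTBP2 lists cut to run XA041 or XB028, an alternative added after the data were seen that leaves fewer intervals. Leaving out 1 wild-type FLAG replicate gave 1774 to 1894 members, shares overlapped by PTBP2 of Rosa-PTBP1 of 16.8% to 17.2%, and differences from shared sites of -38.9 to -38.6 points.

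The share, 16.9%, was 9.72% with 3 or more intervals, 58.9% with 10 or more, 14.6% with no FLAG within 500 bases, 12.1% on all 18 chromosomes, 6.16% for stacked Rosa-PTBP1 sites, 22% within 50 bases and 13.1% with run XB028. By depth it was 14.1%, 60% and 33.3% (5 to 9, 10 to 19, 20 or more intervals). Added after the data were seen, it was 13.3% at 5 to 9 intervals and 60 to 79 bases, and 40% and 20.3% with both PTBP2 lists cut to XA041 or XB028.

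The difference, -38.9 points, was -15.4 with 10 or more intervals, -26.1 on all 18 chromosomes and -33.3 for stacked sites. By depth it was -24.7, -2.89 and -58.4, in the last class from 3 members. Added after the data were seen, it was -28.1 at 5 to 9 intervals and 60 to 79 bases and -19.9 with weighting. It stayed negative in all 24 settings, and in 16 it lay within the main 95% interval. The cause of these moves was not tested. Of the 20 members named by intervals, 13 had no FLAG interval within 50 bases, 9 none within 500 bases, and 7 were members with both lists cut to XA041. Motif alternatives were not run, since no sequence was used. No paired analysis was possible because the labels number replicates in the wild-type FLAG group alone, and every other group is 1 library. The lists give no reads below their threshold, which limits what an unlisted site shows.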

Other observations

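Chromosomes outside the rule can be set beside the members. On chromosome X, 38 of 154 stacked PTBP2 wild-type sites (24.7%) had no interval in any FLAG list. On chromosome 10, where the FLAG list of Rosa-PTBP1 cortex held 531 intervals against 16905 with loxp alleles, it was 206 of 623 (33.1%). With that list ignored everywhere, the shares without FLAG were 33.2% on chromosome 10, 37.7% on X and 32.5% on the 18 member chromosomes.

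The members farthest from FLAG-PTBP1 were chosen after their values were seen. The site chr16:26643055-26643101, on the plus strand, held 5 PTBP2 intervals in wild type and 0 in Rosa-PTBP1, and its nearest FLAG-PTBP1 interval was 746442 bases away. The site chr3:40843583-40843653, also on the plus strand, held 6 and 5, with the nearest at 568210 bases, although wild-type FLAG replicate 1 listed an interval 6918 bases away.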
